A study of Mus musculus with 2 samples.

Results

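S100 genes encode small proteins, most of which bind calcium. Of these genes 8, S100a1, S100a4, S100a6, S100a8, S100a9, S100a10, S100a11 and S100a13, are described here in regulatory T cells (Tregs) of the spleen and the lung. They were taken by symbol from the deposited gene expression values, which list 24346 symbols for each tissue. All 8 were found in both libraries. Both libraries came from Foxp3-DTR-GFP (FDG) mice of 10 to 16 weeks of age, in which a fusion of the diphtheria toxin receptor and GFP is made from the Foxp3 locus, so GFP marks cells that express the transcription factor of Tregs. The mice received 50 μg of bleomycin (BLM), a drug that injures the lung and leads to fibrosis, in 50 μl of PBS into the trachea. On day 15, GFP+CD4+ cells were sorted from the spleen and the lung, and each tissue gave 1 library, made from the pooled cells of 3 mice. The comparison addresses which genes differed between Tregs of the injured lung and those of a lymphoid organ of the treated mice. Untreated mice and cells without GFP were not analysed here, so differences due to BLM, to the tissue or to the sort cannot be told apart. Since each tissue had 1 library, the spread between replicates is not known and no test was made.

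S100 proteins pair into dimers and carry EF-hand loops, which in most of them bind calcium. On binding calcium, most of them expose a surface that grips a target protein, such as an annexin at the membrane, a cytoskeletal protein or an enzyme. S100a8 and S100a9 form calprotectin, which neutrophils and monocytes store and release and which acts on Toll-like receptor 4 and the receptor Ager (RAGE). S100a4 is widely known as a gene of motile fibroblasts and is also used by memory T cells and macrophages. Most S100 genes lie close together on 1 chromosome, next to genes of skin differentiation.

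All 8 genes lay on chromosome 3 in the GENCODE M21 annotation of GRCm38, in 2 groups 2.82 Mb apart. The first group, from S100a1 to S100a9, covered 185 kb and held S100a1 and S100a9 on the minus strand and S100a13, S100a4, S100a6 and S100a8 on the plus strand. S100a11 (chr3:93520488-93526287) and S100a10 (chr3:93555080-93564643) formed the second group, both on the plus strand. S100a1 (chr3:90511034-90514392) and S100a13 (chr3:90514435-90524581) stand head to head, with their annotated ends 42 bp apart. The RefSeq starts of this pair lie 104 bases apart, and those bases are shown because the 2 genes on either side had very different ratios between the tissues. They are given on the plus strand (GRCm38.p6, chr3:90514331-90514434), with S100a1 transcribed to the left and S100a13 to the right. The bases up to 90514392 lie within the GENCODE range of S100a1, whose start differs from the RefSeq one used here.
S100a1 to S100a13: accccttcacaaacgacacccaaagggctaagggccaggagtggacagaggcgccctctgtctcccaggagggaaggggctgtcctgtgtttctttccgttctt

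For 7 of the 8 genes the RefSeq promoter table (GRCm38.p6) held a window around the start, and S100a10 was not among them. The 250 bases before the RefSeq start of the S100a4, S100a8, S100a9 and S100a11 genes are shown because they held the motifs searched. They lie at chr3:90603520-90603769 (plus strand), chr3:90668821-90669070 (plus), chr3:90695722-90695971 (minus) and chr3:93520246-93520495 (plus). Each is written 5′ to 3′ toward the start, and capitals mark matches, on either strand, to the letters of a TATA box, a GC box or the sites of AP-1, C/EBP and GATA factors, spelled out after the sequences.
S100a4: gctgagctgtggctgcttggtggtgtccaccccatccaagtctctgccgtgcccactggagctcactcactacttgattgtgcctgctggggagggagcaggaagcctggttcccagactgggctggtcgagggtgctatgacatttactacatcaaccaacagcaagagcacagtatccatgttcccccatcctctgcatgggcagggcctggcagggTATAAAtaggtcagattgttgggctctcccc
S100a8: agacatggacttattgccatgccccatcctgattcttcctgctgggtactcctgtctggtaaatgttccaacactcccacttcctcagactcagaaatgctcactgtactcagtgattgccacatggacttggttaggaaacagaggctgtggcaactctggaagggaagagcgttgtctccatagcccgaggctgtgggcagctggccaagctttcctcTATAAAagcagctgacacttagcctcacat
S100a9: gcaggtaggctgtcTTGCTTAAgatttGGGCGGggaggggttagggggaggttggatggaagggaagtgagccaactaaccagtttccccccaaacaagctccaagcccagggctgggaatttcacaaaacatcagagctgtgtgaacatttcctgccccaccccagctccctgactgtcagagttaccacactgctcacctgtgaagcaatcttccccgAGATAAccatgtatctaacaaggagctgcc
S100a11: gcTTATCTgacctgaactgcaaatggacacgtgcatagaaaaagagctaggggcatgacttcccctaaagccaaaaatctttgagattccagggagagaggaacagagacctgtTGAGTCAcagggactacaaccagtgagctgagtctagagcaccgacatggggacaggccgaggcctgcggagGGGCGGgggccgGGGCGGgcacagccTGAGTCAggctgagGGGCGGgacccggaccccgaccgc

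The TATA box letters searched were TATAAA. They began 31 bases before the RefSeq start of S100a4 and 30 bases before that of S100a8, and 12.4% of 32851 mouse promoter windows of the same length held them. The GENCODE range of S100a8 begins earlier, at 90668978, so the TATA letters of its window lie within that range. That of S100a11 begins at 93520488, also inside its window. GC boxes, searched as GGGCGG, numbered 3 in the S100a11 window and 1 in that of S100a9, and were present in 32.7% of all windows. The AP-1 letters TGANTCA were found at 2 places in the S100a11 window, 136 and 38 bases before its start, and in 6.75% of all windows. The C/EBP letters TTNNGCAA were found in the S100a9 window, 236 bases before its start, and in 9.56% of all windows. The GATA letters AGATAA were found in the windows of S100a9 and S100a11 and in 9.99% of all windows. The windows of S100a1, S100a6 and S100a13 held none of the 5 motifs. No match overlapped another in the windows shown, and the matches describe the letters only.

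The values are FPKM, the fragments of a gene per kilobase of its exons after scaling to the number of mapped fragments. Every S100 gene of the 8 had a higher FPKM in lung Tregs than in splenic Tregs. S100a1 was 7.59 FPKM in splenic and 181 FPKM in lung Tregs, and S100a4 was 64.3 and 490.4 FPKM. S100a6 was 95.2 and 614 FPKM, and S100a11 was 425 and 1855 FPKM. These 4 genes had the highest ratios of lung to spleen, 23.8-fold for S100a1, 7.62-fold for S100a4, 6.46-fold for S100a6 and 4.36-fold for S100a11. S100a8 was 276 FPKM in splenic and 804 FPKM in lung Tregs, and its partner S100a9 was 120.3 and 328 FPKM. S100a10 had the highest level in both tissues, 752 and 1885 FPKM, and S100a13 was 89.8 and 218 FPKM. These 4 genes lay close together in ratio, at 2.92-fold for S100a8, 2.73-fold for S100a9, 2.51-fold for S100a10 and 2.43-fold for S100a13. RNA of pooled cells was measured, so more cells with a transcript and more transcript per cell cannot be told apart for any of these genes.

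**Figure D1:**
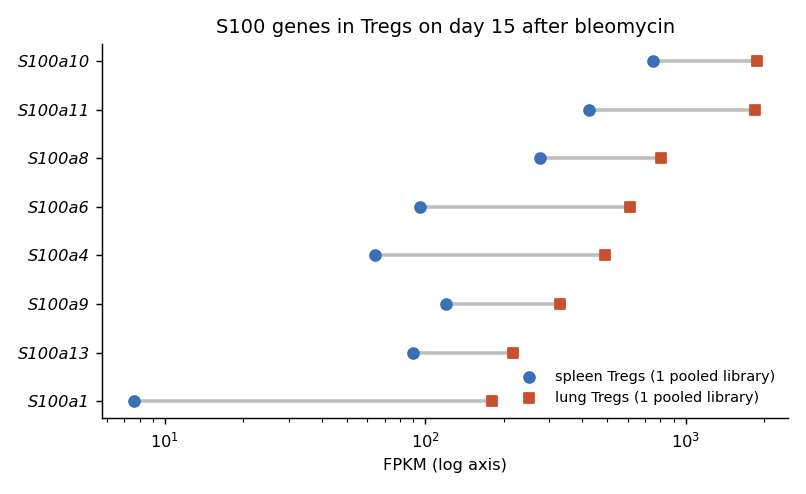
FPKM (log axis) of the 8 S100 genes in the splenic library (circles) and the lung library (squares), 1 pooled library each. The lung value lies to the right for every gene, with the widest gap for S100a1 (7.59 and 181 FPKM) and the highest levels for S100a10 (752 and 1885 FPKM).

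Together the 8 genes summed to 1831 FPKM in splenic and 6377 FPKM in lung Tregs, which was 0.305% and 0.788% of all FPKM of each library. In lung Tregs S100a10 ranked 58 and S100a11 59 among all 24346 symbols, and in splenic Tregs they ranked 119 and 217. S100a1 moved furthest in rank, from 7316 in splenic to 676 in lung Tregs. The order of levels was not the same in both tissues. S100a4 and S100a6 were below S100a9 in splenic Tregs and above it in lung Tregs, and S100a1 was the lowest of the 8 in both.

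Before each ratio was taken, FPKM under 0.1 were set to 0.1, a floor that none of the 8 genes reached. All 8 exceeded 2-fold and 1 of 8, S100a1, exceeded 20-fold. Among all 24346 symbols, 11% were over 2-fold and 1.62% over 20-fold higher in lung Tregs, but many of these symbols were near 0. Among the 12094 symbols whose higher library reached 1 FPKM, 51.5% were higher in lung Tregs by any amount, 17.8% by over 2-fold and 3.27% by over 20-fold. All 8 S100 genes reached 100 FPKM in lung Tregs, and so were also set against the 1309 symbols at or above that level in the higher library. S100a1, S100a4, S100a6 and S100a13 passed this level through the lung library only. The level was set after the values were seen, and the 8 genes were chosen with earlier results of these data known. Ranks and medians at this level thus describe the 2 libraries and are no test. Of the 1309 symbols 75.2% were higher in lung Tregs, 17.1% by over 2-fold and 3.97% by over 20-fold. The median log2 ratio was 1.83 over the 8 S100 genes, 0.38 over the 1309 highly expressed symbols and 0.031 over the 12094.

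By ratio S100a1 was at rank 44 of the 1309 highly expressed symbols, S100a4 at 74, S100a6 at 80 and S100a11 at 98. S100a8, S100a9, S100a10 and S100a13 were at ranks 133, 143, 163 and 168. Of these 1309 symbols, 224 were over 2-fold higher in lung Tregs.

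**Figure D2:**
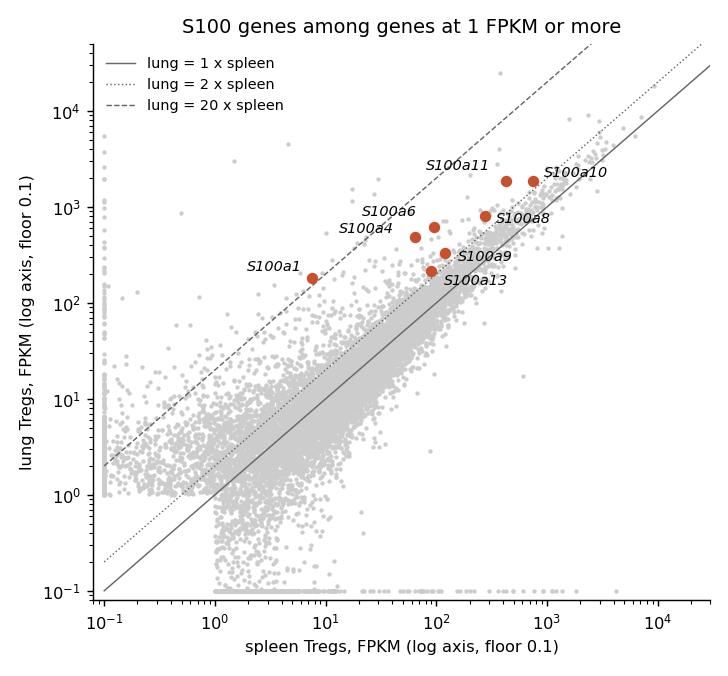
FPKM in splenic (x) and lung Tregs (y), both on log axes with values under 0.1 set to 0.1, for the symbols that reached 1 FPKM in their higher library and with the 8 S100 genes named. All 8 lie above the dotted line of a 2-fold higher lung value, and S100a1 lies above the dashed 20-fold line.

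The precision of each ratio was judged from the reads behind it, which were estimated from the FPKM and transcript lengths. S100a1 had about 36.8 reads in splenic and 997 in lung Tregs, and the 95% counting interval of its ratio was 17.1 to 33.9. The intervals were 6.56 to 8.89 for S100a4, 5.89 to 7.10 for S100a6 and 4.11 to 4.63 for S100a11. Those of S100a4 and S100a6 overlapped each other, and those of S100a1 and S100a11 overlapped no other. The intervals of S100a8 (2.69 to 3.16), S100a9 (2.43 to 3.07), S100a10 (2.41 to 2.60) and S100a13 (2.18 to 2.70) overlapped, apart from those of S100a8 and S100a10, so these genes were not set in order. S100a10 rested on the most reads, about 3714 in splenic and 10567 in lung Tregs. These intervals cover counting error only, and neither copies made by PCR nor the variation between mice are part of them.

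The FPKM summed to 599633 in splenic and 808853 in lung Tregs, so a rescaling of both libraries to the same sum (TPM) lowered every log2 ratio by 0.43. On the TPM scale all 8 S100 genes were still higher in lung Tregs, but S100a10 (log2 ratio 0.89) and S100a13 (0.85) fell below 2-fold and none was over 20-fold. Their median log2 ratio was then 1.40, beside -0.049 over the 1309 highly expressed symbols and -0.40 over the 12094. On that scale 1586 of the 12094 were over 2-fold higher and 3133 over 2-fold lower in lung Tregs, against 2149 and 1872 as deposited.

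**Figure D3:**
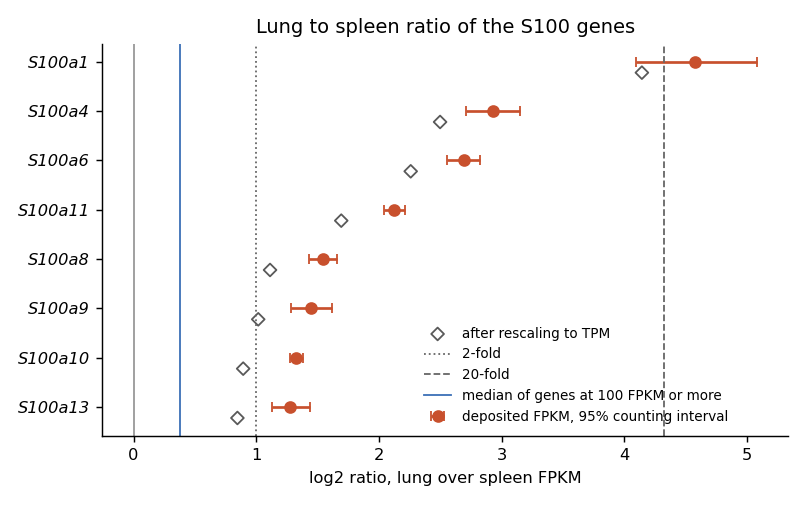
Log2 ratio of lung to spleen FPKM for the 8 S100 genes, with bars for the 95% counting interval and open diamonds for the ratio after rescaling to TPM. Vertical lines mark 2-fold, 20-fold and the median of 0.38 of symbols at 100 FPKM or more. S100a1 stands apart at 4.58, and S100a10 and S100a13 cross below the 2-fold line on the TPM scale.

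S100a1 and S100a13 share one stretch of DNA between the RefSeq starts used above but differed most in ratio. S100a1 is best known from heart and skeletal muscle, where it acts on calcium handling, and S100a13 takes part in the release of proteins that lack a signal peptide, such as Fgf1 and Il1a. The S100a1 level was 0.0845 of the S100a13 level in splenic Tregs and 0.830 of it in lung Tregs, a 9.83-fold shift between the 2 neighbours. Their full RefSeq gene ranges reach past those starts and overlap by 98 bp. The libraries do not keep the strand, so reads from that overlap could be placed at either gene. In the GENCODE transcripts neither gene shared a 75-base stretch with another. Il1a, which encodes interleukin 1α, was 2.02 FPKM in splenic and 26.3 FPKM in lung Tregs, and Fgf1 was 0.130 and 1.45 FPKM. Of 7 heart muscle genes, Myh6, Actc1, Myl7 and Nppa were listed at 0 in both libraries. Myl4 alone reached 1 FPKM, at 2.86 FPKM in splenic and 2.39 FPKM in lung Tregs, and the 7 genes summed to 4.14 and 2.94 FPKM. Tnnt2 was 0.966 FPKM in splenic Tregs, about 9.10 reads, and was listed at 0 in lung Tregs. Its counting interval reached up to a ratio of 0.446, so it was lower there. The other heart muscle genes gave no direction.

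S100a4 and S100a6 lie 6.84 kb apart on the same strand and followed S100a1 by ratio. S100a4 acts on non-muscle myosin, and S100a6 on annexins and on Cacybp, a protein of ubiquitin ligase complexes. S100a6 was 1.48 times the level of S100a4 in splenic Tregs and 1.25 times in lung Tregs, and both were over 6-fold higher in lung Tregs. Myh9, the heavy chain of non-muscle myosin, went the other way, with 59.0 FPKM in splenic and 31.8 FPKM in lung Tregs, 1.85-fold lower. Cacybp was 77.4 and 110.3 FPKM, so the level of S100a6 was 1.23 times that of Cacybp in splenic and 5.57 times in lung Tregs. Sugt1, a chaperone partner that also binds S100a6, was 45.2 and 68.1 FPKM. The value of S100a4 carries a limit of counting, because 53.8% of its 75-base stretches are also part of Gm42674, an overlapping gene on the same strand that is not among the listed symbols.

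S100a10 and S100a11 lie 28.8 kb apart and were the 2 most abundant S100 transcripts in both tissues. S100a10 binds Anxa2 in a complex that holds plasminogen at the cell surface and brings channels to the membrane, and S100a11 binds Anxa1. Anxa2 was 89.4 FPKM in splenic and 469 FPKM in lung Tregs (5.25-fold), and Anxa1 was 14.5 and 209.7 FPKM (14.5-fold). Both annexins thus had higher ratios than their S100 partners. The level of S100a10 was 8.41 times that of Anxa2 in splenic and 4.02 times in lung Tregs, and the level of S100a11 was 29.4 times that of Anxa1 in splenic and 8.85 times in lung Tregs. Ahnak, a giant scaffold that joins the S100a10 and Anxa2 complex, was 10.9 and 39.9 FPKM (3.65-fold). The annexins Anxa6 (214 and 228 FPKM) and Anxa11 (13.8 and 9.25 FPKM), which bind S100a6 among others, stayed under 2-fold. For S100a11, 37.8% of its 75-base stretches are shared with processed pseudogenes, Gm12854 and Gm7665, which are not among the listed symbols, so reads could have been placed at either.

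Of 13 partner genes in all, 8 were higher in lung Tregs and 4 were lower. The 5 over 2-fold higher were Anxa1, Anxa2, Ahnak, Fgf1 and Il1a. Among the 12094 symbols that reached 1 FPKM, as did 12 of the 13, 51.5% were higher and 17.8% over 2-fold. The median log2 ratio of the 13 partners was 0.51. On the TPM scale it was 0.079, with 7 higher and 5 lower. Capza1, the actin-capping subunit whose peptide binds S100 proteins, was 302 FPKM in splenic and 284 FPKM in lung Tregs. S100pbp was 5.91 and 3.94 FPKM, and Syt1, which works with S100a13, was listed at 0.0426 in splenic and at 0 in lung Tregs.

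S100a8 and S100a9 kept a nearly constant proportion to each other. S100a8 had 2.29 times the FPKM of S100a9 in splenic Tregs and 2.45 times in lung Tregs. The 2 genes are transcribed toward each other, with 22.6 kb between their ends. Both are among the most abundant transcripts of neutrophils, so they were set beside 11 listed neutrophil genes. Camp (21.7 FPKM), Ngp (36.4), Ltf (11.6), Mpo (1.86), Elane (1.76) and Prtn3 (0.254) were in splenic Tregs and listed at 0 in lung Tregs. Of these 6, Prtn3 rested on only about 2.15 splenic reads. Csf3r, the receptor for the growth factor of neutrophils, was higher in lung Tregs (4.06 and 26.4 FPKM), as was the collagenase gene Mmp8 (1.12 and 8.40 FPKM). Retnlg was 19.5 and 32.7 FPKM, Lcn2 11.4 and 14.8 FPKM, and Cxcr2 4.87 and 8.06 FPKM. The counting intervals of Prtn3 (up to 4.69) and Lcn2 (0.980 to 1.75) included 1, so neither gave a direction. By the listed values the 11 genes thus went both ways, with 6 lower and 5 higher in lung Tregs, and 4 higher on the TPM scale. Their sum was 115 FPKM in splenic and 90.3 FPKM in lung Tregs, and the part of neutrophils in the values of S100a8 and S100a9 was not tested.

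**Figure D4:**
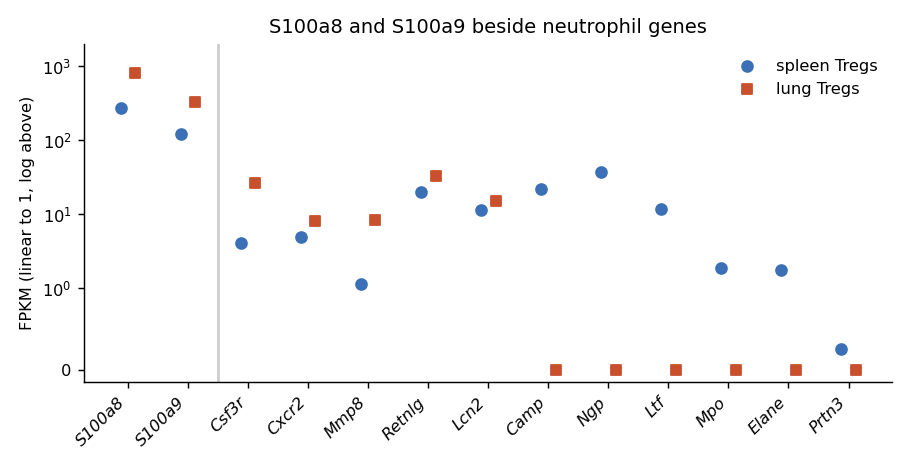
FPKM of S100a8 and S100a9 and of 11 neutrophil genes in splenic (circles) and lung Tregs (squares), on an axis that is linear up to 1 FPKM and logarithmic above. S100a8 and S100a9 are higher in lung Tregs, and Camp, Ngp, Ltf, Mpo, Elane and Prtn3 are at 0 there. Csf3r (4.06 and 26.4 FPKM) and Mmp8 (1.12 and 8.40 FPKM) are the other genes over 2-fold higher. Retnlg, Lcn2 and Cxcr2 are higher by less than 2-fold.

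Genes of other cells were also measured, since several S100 genes are highly used by myeloid and stromal cells. All 12 macrophage and monocyte genes were higher in lung Tregs, 9 of them over 2-fold, and none was at 0 in either library. Their sum was 786 FPKM in splenic and 27605 FPKM in lung Tregs, most of it the lysozyme gene Lyz2 (376 and 24947 FPKM), and Chil3 was 17.4 and 1161 FPKM. On the TPM scale 10 of these 12 were higher. Of 6 dendritic cell genes, which summed to 12.6 and 55.2 FPKM, 4 were higher in lung Tregs, and Itgax made up 24.1 FPKM of the lung sum. Flt3 (1.43 and 0.172 FPKM) and Siglech (2.78 and 1.71 FPKM) were lower there. Fibroblast genes summed to 0.290 and 163 FPKM, with 7 of 8 higher in lung Tregs, 5 at 0 in splenic Tregs and Pdgfrb at 0 in both. Of 8 epithelial genes, which summed to 11 and 3141 FPKM, 7 were higher in lung Tregs and Epcam was lower (8.75 and 1.79 FPKM). Scgb1a1 made up 3021 FPKM of the lung sum, and 4 of the 8 were at 0 in splenic Tregs. Of 6 endothelial genes, 3 reached 1 FPKM in either library. By ratio 4 of the 6 were over 2-fold higher in lung Tregs, among them Cldn5 (0.160 and 6.54 FPKM) and Vwf (0.425 and 2.03 FPKM). Cdh5 (0 and 0.382 FPKM) and Tek (0 and 0.235 FPKM) were also higher but stayed below 1 FPKM. Pecam1 was lower (54.8 and 31.7 FPKM) and set most of the endothelial sum of 55.4 and 40.8 FPKM. All 5 B cell genes were lower in lung Tregs (239 and 123 FPKM in sum). Most listed markers of macrophages, fibroblasts and epithelium were thus higher in lung Tregs, as the 8 S100 genes were. Those of dendritic cells and endothelium went both ways. Among the 12094 symbols that reached 1 FPKM, 51.5% were higher and 17.8% over 2-fold. The part of any of these cells in the S100 values was not tested.

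Among 11 genes of T cells and Tregs, 4 were higher and 7 lower in lung Tregs, and the median log2 ratio was -0.012. On the TPM scale 3 were higher and 8 lower. Foxp3 itself was 18.7 FPKM in splenic and 41.8 FPKM in lung Tregs, and Ctla4, an inhibitory receptor of Tregs, was 221 and 601 FPKM. The Treg genes did not share 1 direction. Tnfrsf18 was 470 and 919 FPKM, Ikzf2 was 42.0 and 41.6 FPKM, and Il2ra was lower in lung Tregs (89.4 and 59.1 FPKM). Cd3d was 469 and 468 FPKM and Cd4 195 and 179 FPKM. The markers that define the sorted cells were thus present in both libraries. Both libraries were also scaled to the T cell genes Cd3d, Cd3e, Cd3g, Cd4, Cd5 and Lck, a scale chosen after seeing the data. All 8 S100 genes were then over 2-fold higher in lung Tregs, with a median log2 ratio of 2.06. So were 22.1% of the 12094 symbols at 1 FPKM or more (median log2 ratio 0.26). Of the 1309 symbols at 100 FPKM or more, 25.5% were (median 0.61).

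Genes for receptors of extracellular S100 proteins went both ways between the tissues. Ager, the receptor RAGE, was 2.27 FPKM in splenic and 1.74 FPKM in lung Tregs, with a counting interval of the ratio of 0.432 to 1.41. Tlr4 was 1.94 and 3.48 FPKM and its co-receptor Ly96 19.7 and 31.2 FPKM. Cd14, which presents ligands to Tlr4 and is a gene of monocytes and macrophages, was 11.4 and 277 FPKM (24.4-fold). Cd36, a scavenger receptor that takes up S100a8 and S100a9 with bound fatty acid, was 3.17 and 46.5 FPKM (14.7-fold). Alcam was 3.0 and 6.08 FPKM (2.02-fold, counting interval 1.69 to 2.42). Bsg, a receptor for S100a9, was 117 and 151 FPKM, and its relative Nptn, a receptor for S100a8, was 36.8 and 47.9 FPKM. Cd69, which binds S100a8 with S100a9 and marks recently activated and resident T cells, was 322 and 252 FPKM. Mcam was listed at 0.180 in splenic and at 0 in lung Tregs. Of the 10 receptor genes, 7 were higher in lung Tregs, 3 over 2-fold and 3 lower. Among the 12094 symbols that reached 1 FPKM, as did 9 of the 10, 51.5% were higher and 17.8% over 2-fold. On the TPM scale 5 of the 10 receptor genes were higher and 5 lower.

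The other S100 genes were low or at 0. S100a3 was 0.766 FPKM in splenic and 13.8 FPKM in lung Tregs, S100a2 was 0.881 and 6.21 FPKM, and S100a16 was listed at 0 in splenic and at 1.99 FPKM in lung Tregs. These 3 were the only ones of 9 other S100 genes that reached 1 FPKM in either library, and all 3 did so in lung Tregs. S100a3 rested on about 3.99 reads in splenic and 81.9 in lung Tregs, so its 18.1-fold ratio had a counting interval of 6.79 to 67.8. S100a2 had only about 1.08 and 8.64 reads. S100a7a (0.543 FPKM), S100a14 (0.133 FPKM) and S100g (0.355 FPKM) were present in splenic Tregs and listed at 0 in lung Tregs. Their splenic values rested on about 6.03, 1.08 and 0.998 reads. S100a5, S100b and S100z were listed at 0 in both. Genes with an S100 domain fused to a long repeat protein of the skin, such as Hrnr, Rptn and Tchh, did not reach 1 FPKM in either library (6 of 7 listed, of which 4 at 0 in both).

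Along chromosome 3 the S100 genes were set beside their neighbours. Between S100a1 and S100a9 all 12 listed protein-coding genes were S100 genes. The 6 described here, S100a1, S100a13, S100a4, S100a6, S100a8 and S100a9, were above 1 FPKM in both libraries and over 2-fold higher in lung Tregs. S100a2, S100a3 and S100a16 were also higher there, but reached 1 FPKM in lung Tregs only. S100a7a was lower in lung Tregs, where it was listed at 0. S100a14 was also listed at 0 there, but its 1.08 or so splenic reads were too few to give a direction. S100a5 was at 0 in both. Of the 10 genes just before S100a1, 9 reached 1 FPKM, 3 of them over 2-fold higher and 3 over 2-fold lower, and their median log2 ratio was 0.0085. The nearest, Chtop (35.6 FPKM in splenic and 36.3 FPKM in lung Tregs), Snapin (62.0 and 62.4 FPKM) and Ilf2 (49.1 and 31.1 FPKM), stayed under 2-fold. Between S100a9 and S100a11 lie 54 genes, mostly of the outer skin, of which 48 were at 0 in both libraries and 1, Sprr3 (0 and 3.10 FPKM), reached 1 FPKM. Of the 10 genes after S100a10, 7 were at 0 in both.

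**Figure D5:**
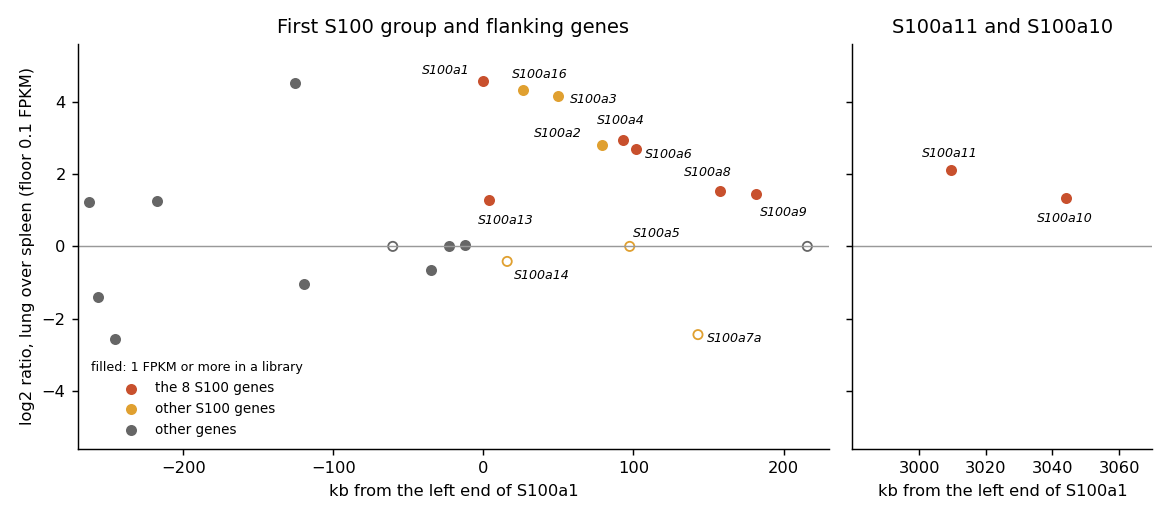
Log2 ratio of lung to spleen FPKM, with values under 0.1 FPKM set to 0.1, against the distance in kb from the left end of S100a1, for the first S100 group and its flanking genes and for S100a11 with S100a10. Filled points reach 1 FPKM in a library, which S100a2, S100a3 and S100a16 do in lung Tregs only. The 8 S100 genes lie above a log2 ratio of 1, and genes before S100a1 lie on both sides of 0. S100a7a and S100a14 are drawn below 0, but S100a14 rests on about 1.08 splenic reads and gives no direction.

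The 8 S100 genes were chosen with earlier results of these data known, and other EF-hand genes were set beside them as a description only. Of 19 such genes, 14 were higher in lung Tregs, and 1, Gca (0.595 and 3.20 FPKM), exceeded 2-fold, beside 17.8% of all symbols that reached 1 FPKM, as did 18 of the 19. Sri, which encodes the calcium-binding protein sorcin, was 167 FPKM in splenic and 231 FPKM in lung Tregs, and Stim1, the calcium sensor of the endoplasmic reticulum, was 31.7 and 27.5 FPKM. Rcn1, a calcium-binding protein of the endoplasmic reticulum, was 2.96-fold lower in lung Tregs (40.6 and 13.7 FPKM). The median log2 ratio of the 19 was 0.28, and on the TPM scale it was -0.075 with 7 higher and 11 lower. On both scales it was below the medians of 1.83 and 1.40 of the 8 S100 genes.

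The genes closest to each S100 gene in both levels were found by the distance between their log2 values in the 2 libraries, over the 2 libraries only. Ctla2b (7.70 and 172 FPKM), a cysteine protease inhibitor of T cells, lay nearest to S100a1 with a distance of 0.073, followed by Ear2 (9.24 and 205 FPKM). Pdcd1, the inhibitory receptor PD-1, was nearest to S100a4 (73.2 and 378 FPKM, distance 0.42). Cd9, a tetraspanin, was nearest to S100a6 (96.3 and 634 FPKM, distance 0.047) and second to S100a4. Fcer1g (116 and 710.2 FPKM), a signalling chain of Fc receptors, was second to S100a6. The MHC class II gene H2-Aa (294 and 803 FPKM) and the protease inhibitor gene Cst3 lay nearest to S100a8, and Dbi and Prdx5 nearest to S100a9. S100a11 had Ctss and H2-Ab1 as nearest genes, at distances of 0.64 and 0.66, and S100a10 had Snora68 and H2afz at 0.37 and 0.40. Ctsc (92.8 and 219 FPKM) and Atp6v0b were nearest to S100a13. These lists held genes known from T cells, such as Pdcd1 and Ctla2b, as well as genes known from myeloid cells, such as Ear2, Fcer1g and Ctss.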

How the data were processed

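RNA of the sorted GFP+CD4+ cells was made into cDNA with the SMART-Seq HT and Nextera XT kits, which add no molecular identifiers and do not keep the strand. The authors aligned single-end reads of 75 bases to mm10 (TopHat2 2.1.1, with Bowtie2 2.2.8 and SAMtools 0.1.18) and deposited FPKM values from Cuffdiff 2.2.1. The gene annotation and options are not given in the sources used here. Symbols listed at 0 numbered 9542 in spleen and 10638 in lung.

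The lung-to-spleen ratio was taken after setting FPKM under 0.1 to 0.1. Counts of genes higher or lower follow this ratio alone. The counting intervals of some counted genes include 1, among them Prtn3, Lcn2, Ager, Lum, Cd3d, Ikzf2, Pdcd6 and Calu. The 8 genes and all gene lists were chosen with earlier results of these data known. The text names the 8 genes, genes of these lists and, for each of the 8, the 2 nearest symbols outside the lists by Euclidean distance of log2(FPKM + 0.1). Genes flanking the S100 genes on chromosome 3 were named after their values were seen, and the level of 100 FPKM was also set then.

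Reads were estimated from GENCODE M21 transcript lengths, known for 97.3% of symbols, and effective lengths for fragments of mean 200 and SD 80 and of at least 75 bases. The value of 1 read, taken as the commonest FPKM times effective length, was 0.0964 FPKM in spleen and 0.0849 FPKM in lung at 1 kb. The estimated reads summed to 9863159 and 12880308. Of genes with 1 to 10 reads, 72.8% and 74.7% lay within 0.1 of a whole number. Intervals of 95% are exact binomial intervals for the lung share of a gene's reads. With 1 library per tissue there was no test. Steps were tested on simulated data. Python 3.11.15 (numpy 2.4.6, pandas 2.3.3, scipy 1.17.1) was used, with matplotlib 3.10.9 for figures.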

Additional observations from a re-analysis of the deposited data

How the results depend on the processing

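There were 10 alternatives. The floor was set to 0.01 or 1 FPKM, replaced by a pseudocount of 0.1 or 1 FPKM, or replaced by 3 estimated reads. The libraries were rescaled to TPM, to equal upper quartiles, to a median ratio of 1 or, chosen after seeing the data, to T cell genes. A minimum of 1 FPKM in both libraries was also tried. All 80 log2 ratios of the 8 S100 genes kept their sign. Many of these could not differ from the main values. All 8 genes lay above the floors of 0.01 and 1 FPKM, the 3 estimated reads and the minimum of 1 FPKM. Those alternatives therefore say nothing on the 8 genes. Rescaling to TPM left 6 of the 8 over 2-fold and 0 over 20-fold, with a median log2 ratio of 1.40 in place of 1.83, and scaling to T cell genes gave 2.06. Under the other alternatives all 8 stayed over 2-fold. Counts over all symbols moved more: 395 over 20-fold became 867 with a floor of 0.01 FPKM, 102 with a floor of 1, 78 with a pseudocount of 1 and 33 with at least 1 FPKM in both, and 2678 over 2-fold became 1763, 1771 and 1098 under the last 3. No paired analysis was possible because each tissue has 1 library. Depth limits the ratio of S100a1 most, and the variation between mice is not known.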
